A study of Homo sapiens with 18 samples.

Results

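The comparison described here sets untreated PC-3 cells against untreated LNCaP cells, both lines of human prostate cancer, over all genes. Its members were chosen by label, as the 3 count columns of untreated PC-3 and the 3 of untreated LNCaP, which are 6 of the 18 libraries of the series. The other 12 libraries are LNCaP cells that received genistein or baicalein at 10 or 20 µM. Of 63241 genes listed, 17259 had enough counts to be tested.

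PC-3 is an androgen-independent line derived from a bone metastasis, and LNCaP is an androgen-responsive line derived from a lymph node metastasis. Both lines were grown in RPMI-1640 with serum, both carry the genotype label wild type, and both are labelled untreated. The treatment protocol of the series describes DMSO for its controls, so whether these 6 cultures saw that solvent is not clear from the labels. Each line is a single cell line, and the labels do not say that the 3 libraries of a line came from separate cultures. What the p-values measure is thus the library-to-library variation within a line, and that variation may be technical.

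The luminal cells of the prostate depend on androgens, steroid hormones that drive kallikreins such as prostate-specific antigen. Prostate cancers that grow without androgen can lose this programme and carry basal, mesenchymal or inflammatory genes instead. The series as a whole is titled for radioligand therapy against PSMA, the surface protein encoded by FOLH1, which LNCaP is known to carry and PC-3 to lack.

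Poly(A) RNA was sequenced, and the deposited values are read counts per gene. Total counts were 10013567 to 14425374 in the PC-3 libraries and 14982040 to 18445711 in the LNCaP libraries. Mitochondrially encoded genes took 4.15 to 4.87% of the counts in PC-3 and 4.65 to 5.36% in LNCaP. CPM below are counts scaled to sequencing depth and, by TMM, to library composition, and values in a row are the 3 libraries of a line in the order of their replicate numbers. CPM are not divided by transcript length, so they compare a gene between the lines and not genes with each other. Folds are given on the log2 scale, PC-3 over LNCaP, with their standard error. Where a gene had 1 to 3 reads over the 3 libraries of a line, the ratio of pooled counts is given instead with its 95% interval, which covers counting error only, and where it had 0, a bound against a floor of 3 reads over the line. Such folds rest on few reads: of 296 genes followed one by one, 87 moved by over 1.5-fold when a single library was left out, and 84 of these had 10 or fewer reads in the lower line. None of the 296 changed direction. In these bulk samples fewer cells with a transcript and less RNA per cell cannot be told apart.

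Most genes differed between the lines. Of the 17259 genes tested, 12924 (74.9%) were called at an adjusted p under 0.05 by the edgeR quasi-likelihood test, 6387 higher in PC-3 (37% of genes tested) and 6537 lower (37.9%). Calls with more than a 4-fold difference numbered 2603 higher (15.1%) and 2715 lower (15.7%), or 5318 in all (30.8%). The 3 PC-3 libraries lay above all 3 LNCaP libraries in 6667 genes (38.6%) and below them in 6907 (40%). The median log2 fold change, PC-3 over LNCaP, was -0.02 over all genes tested and 0.08 over the 13408 protein-coding genes tested, of which 40.1% were higher and 34.8% lower. A count of called members in a gene list is to be read against these shares. TMM scaling centres the folds near 0, so the median and the near-even split of directions partly follow from the scaling.

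**Figure D1:**
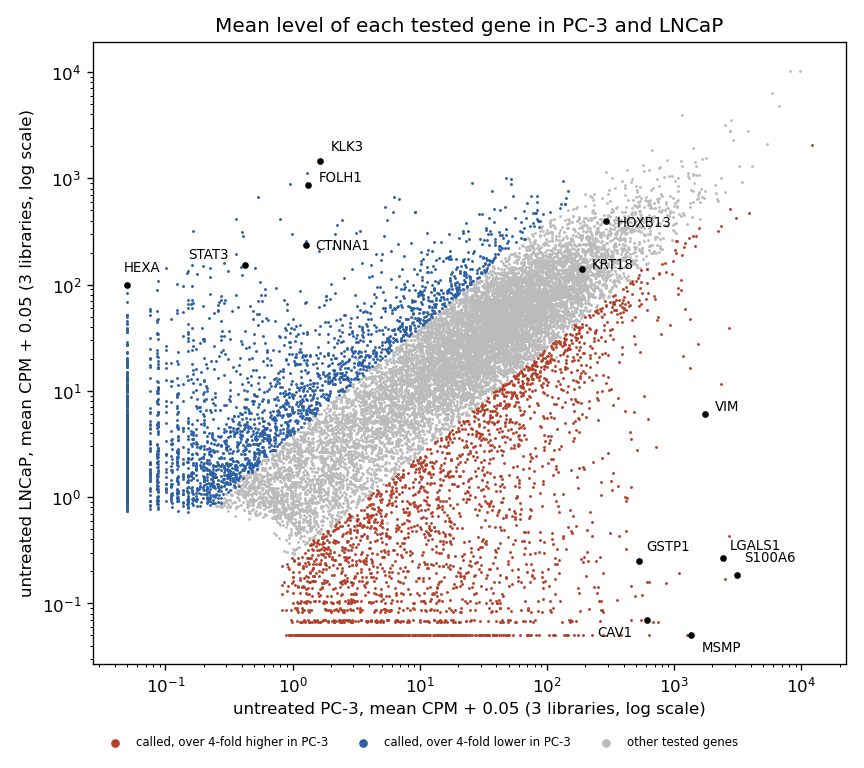
Each point is a tested gene, with its mean CPM plus 0.05 over the 3 untreated PC-3 libraries on the x axis and over the 3 untreated LNCaP libraries on the y axis, both on log scales. Red points (2603) were called and over 4-fold higher in PC-3, blue points (2690, with chromosome Y and XIST left out) over 4-fold lower, and MSMP, S100A6, HEXA and KLK3 lie far from the diagonal while KRT18 and HOXB13 lie close to it.

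Genes that androgens are known to drive were lower in PC-3. KLK3 (ENSG00000142515), the gene of prostate-specific antigen, had 1.25, 1.29 and 2.28 CPM in PC-3, against 1329.5, 1453 and 1585 CPM in LNCaP (log2 fold change -9.84 ± 0.26, adjusted p = 4.63e-07). KLK2, a sister kallikrein, had 0.113, 0.0758 and 0.108 CPM in PC-3, against 62.7, 67.1 and 69.1 CPM in LNCaP (3 reads over the 3 PC-3 libraries, pooled ratio 689-fold lower, interval 236 to 3341). In each of these genes every PC-3 library lay far below every LNCaP library. KLK4, another prostate kallikrein, had 0, 0.0758 and 0.217 CPM in PC-3, against 126, 136 and 123 CPM in LNCaP (3 reads over the 3 PC-3 libraries, pooled ratio 1331-fold lower, interval 455 to 6456).

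The 300 bases around the start of KLK3 are shown because this proximal promoter is a textbook androgen-regulated one. The sequence is from RefSeq on GRCh38.p14, chr19:50854665-50854964, plus strand, from 250 bases before the start to 50 after it. Capitals mark AGAACA, the hexamer of the androgen response element.
KLK3 promoter: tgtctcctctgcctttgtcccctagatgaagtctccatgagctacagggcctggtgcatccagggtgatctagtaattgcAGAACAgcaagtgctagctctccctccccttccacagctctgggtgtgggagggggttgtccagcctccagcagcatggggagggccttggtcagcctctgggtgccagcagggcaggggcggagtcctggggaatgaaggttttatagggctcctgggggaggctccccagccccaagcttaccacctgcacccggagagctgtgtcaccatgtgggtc
The hexamer was searched on both strands. It lay in 14.9% of all 27305 promoters in the table and in 8.79% of those of tested protein-coding genes. Of the 16 androgen-induced genes that have an entry, 3 held it (18.8%). The full element, AGAACA and TGTTCT with 3 bases between them, was found in 1 promoter of all and in 0 of the 16.

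Of the androgen-induced genes, 3 of 25 tested members were called higher and 18 lower, with a median log2 fold change of -3.53. The PC-3 libraries summed to 1947 to 2164 CPM over the list, against 5318 to 5542 CPM in LNCaP. GREB1, a coregulator gene under steroid control, had 0, 0.0758 and 0 CPM in PC-3, against 52.5, 50.7 and 52.4 CPM in LNCaP (1 read over the 3 PC-3 libraries, pooled ratio 1622-fold lower, interval 291 to 64070). CHRNA2, a nicotinic receptor subunit, had 0 CPM in all 3 PC-3 libraries, against 11.9, 11.1 and 10.2 CPM in LNCaP, which is at least 116-fold lower in PC-3. MAF, a basic leucine zipper factor, had 0.227, 0.0758 and 0 CPM in PC-3, against 88.3, 53.4 and 75 CPM in LNCaP (3 reads over the 3 PC-3 libraries, pooled ratio 762-fold lower, interval 261 to 3697). TMPRSS2, a surface serine protease, was present in both lines, with 61.2, 67 and 63.7 CPM in PC-3, against 293, 325 and 326 CPM in LNCaP (log2 fold change -2.30 ± 0.10, adjusted p = 2.47e-06). The 3 members called higher were NDRG1 (log2 fold change 3.51), which also responds to hypoxia, STEAP4 (4.41), a metalloreductase, and SPOCK1 (3.34), a matrix proteoglycan. NDRG1 had 989, 1118 and 1090.5 CPM in PC-3, against 86.1, 91.3 and 102 CPM in LNCaP, and in PC-3 its reads made up a large share of that sum.

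Among hormone cofactors and lineage factors, 6 of 19 tested members were called higher and 12 lower, with a median log2 fold change of -0.77. GRHL2, a factor that maintains epithelial gene expression, had 1.36, 2.05 and 1.3 CPM in PC-3, against 203, 224 and 199.8 CPM in LNCaP (log2 fold change -7.02 ± 0.20, adjusted p = 5.42e-07). EHF, an epithelial ETS factor, had 5.22, 10.6 and 11.4 CPM in PC-3, against 515, 462 and 482 CPM in LNCaP (log2 fold change -5.74 ± 0.31, adjusted p = 6.65e-06). Both factors were low in every PC-3 library and did not overlap with LNCaP. HOXB13, the homeobox factor that marks prostate epithelium, had 286, 306 and 287 CPM in PC-3, against 374, 406 and 414 CPM in LNCaP, a small difference next to the others (log2 fold change -0.44 ± 0.09, adjusted p = 0.00387). FOXA1, a pioneer factor, had a log2 fold change of -2.14, and NCOR1, a corepressor, of -3.35. The glucocorticoid receptor gene NR3C1 went the other way with 51.9, 47.8 and 35.1 CPM in PC-3, against 0.853, 1.08 and 0.839 CPM in LNCaP (log2 fold change 5.60 ± 0.22, adjusted p = 1.53e-06).

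**Figure D2:**
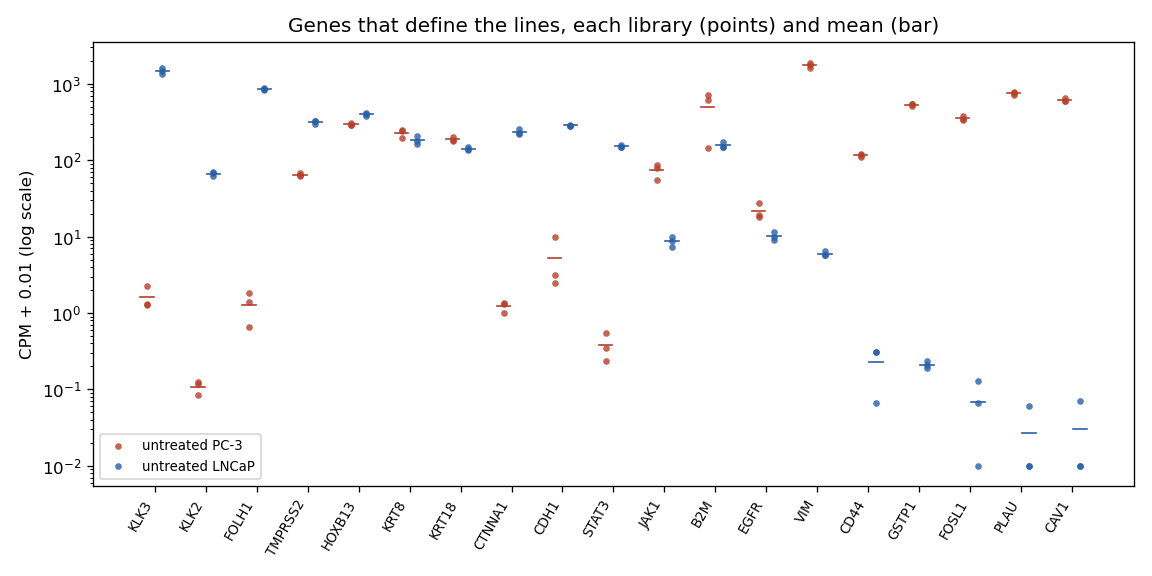
Points give CPM plus 0.01 (log scale) of each library for 19 genes that define the lines, with untreated PC-3 in red at the left of each pair and untreated LNCaP in blue at its right, and bars give the mean of 3 libraries. KLK3 lay at 1.25 to 2.28 CPM in PC-3 and at 1329.5 to 1585 CPM in LNCaP, PLAU at 711 to 776 CPM in PC-3 and at 0.0502 CPM or 0 in LNCaP, and the libraries of the 2 lines overlapped for B2M and KRT8.

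FOLH1, the gene of PSMA, had 1.81, 1.36 and 0.65 CPM in PC-3, against 830.2, 888 and 848 CPM in LNCaP (log2 fold change -9.38 ± 0.30, adjusted p = 8.41e-07). Every PC-3 library lay far below every LNCaP library, and the close copy FOLH1B makes the placement of some reads uncertain. Of the surface antigens used as prostate cancer targets, 5 of 12 tested members were called higher and 7 lower, with a median log2 fold change of -1.02. STEAP1, a multi-pass membrane protein, had 86.5, 74.9 and 85 CPM in PC-3, against 505, 452 and 464 CPM in LNCaP. CD276, an immune checkpoint ligand, had 25.7, 17.4 and 19.7 CPM in PC-3, against 164, 131 and 151 CPM in LNCaP. Both were lower in PC-3 but present in it (log2 fold changes -2.53 and -2.83). NECTIN4, an adhesion molecule, had 0, 0.152 and 0.325 CPM in PC-3, against 17.1, 18.4 and 17.8 CPM in LNCaP (log2 fold change -6.72 ± 0.41, adjusted p = 8.53e-06), and the log2 fold change was -7.48 without PC-3 replicate 3. The antigens called higher in PC-3 included GRPR, the gastrin-releasing peptide receptor, with 75.5, 60.9 and 57.3 CPM in PC-3, against 2.86, 1.37 and 2.96 CPM in LNCaP (log2 fold change 4.74 ± 0.29, adjusted p = 1.24e-05), F3, DLL3 and CD46. F3, the gene of tissue factor, had a log2 fold change of 2.07, the NOTCH ligand DLL3 of 1.33 and the complement regulator CD46 of 0.87.

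The enzymes that make and clear androgens were divided: 7 of 16 tested members were called higher and 7 lower, with a median log2 fold change of -0.12. Such a division is near that of all tested protein-coding genes (40.1% higher and 34.8% lower). The UDP-glucuronosyltransferases, which conjugate androgens for export, were nearly absent from PC-3. UGT2B17 had 0.454, 0 and 0.325 CPM in PC-3, against 133, 139.7 and 126 CPM in LNCaP (log2 fold change -9.14 ± 0.46, adjusted p = 4.86e-06), and without a single PC-3 library its log2 fold change was between -9.82 (without replicate 1) and -8.38 (without replicate 2). UGT2B15 had 0.113, 0 and 0.108 CPM in PC-3, against 57.7, 55.4 and 58.4 CPM in LNCaP (2 reads over the 3 PC-3 libraries, pooled ratio 894-fold lower, interval 247 to 7384). UGT2B genes are similar in sequence, so the split of reads among them is uncertain. AKR1C3, which makes testosterone from androstenedione, was higher with 28.2, 26.8 and 31.4 CPM in PC-3, against 0.351, 0.299 and 0.168 CPM in LNCaP (log2 fold change 6.67 ± 0.23, adjusted p = 9.28e-07). HSD17B2, which oxidises testosterone back, was also higher with 21.3, 20 and 25.6 CPM in PC-3, against 0.0502, 0.0597 and 0.28 CPM in LNCaP (log2 fold change 7.34 ± 0.40, adjusted p = 5.79e-06). Both lay near 0 in LNCaP, and the log2 fold change of HSD17B2 was 8.44 without LNCaP replicate 3.

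Genes of epithelial junctions and of epithelial splicing were lower in PC-3. In this list 3 of 30 tested members were called higher and 24 lower, with a median log2 fold change of -2.22. CTNNA1, the gene of alpha-catenin that links cadherins to actin, had 1.36, 0.986 and 1.3 CPM in PC-3, against 223, 253 and 224 CPM in LNCaP (log2 fold change -7.60 ± 0.17, adjusted p = 3.03e-07). CDH1, the gene of E-cadherin, had 3.17, 9.93 and 2.49 CPM in PC-3, against 292, 279 and 282 CPM in LNCaP (log2 fold change -5.72 ± 0.53, adjusted p = 7.44e-05). PC-3 replicate 2 stood above the other 2 PC-3 libraries for CDH1, and without it the log2 fold change was -6.64. RAB25, an epithelial trafficking GTPase, had 0.454, 0.531 and 0.325 CPM in PC-3, against 52.9, 58.1 and 58.7 CPM in LNCaP (log2 fold change -6.96 ± 0.17, adjusted p = 3.61e-07), and the tight junction gene CLDN7 had a log2 fold change of -5.12. The splicing regulators ESRP1 and ESRP2 had log2 fold changes of -3.03 and -2.38. The exceptions called higher were CLDN1, CLDN3 and the desmosomal gene PKP2. CLDN1, a tight junction claudin, had 46.4, 39.6 and 42.6 CPM in PC-3, against 0.1, 0 and 0.0559 CPM in LNCaP (3 reads over the 3 LNCaP libraries, pooled ratio 771-fold higher, interval 263 to 3745). CTNNB1, the gene of beta-catenin, was not called, with 348, 309 and 284 CPM in PC-3, against 318, 273 and 289 CPM in LNCaP (log2 fold change 0.10 ± 0.12, adjusted p = 0.476). CLDN4, another claudin, was not called either and varied within both lines, with 379, 1.21 and 414 CPM in PC-3, against 6.12, 144 and 1.12 CPM in LNCaP.

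Mesenchymal genes were higher as a list, where 15 of 20 tested members were called higher and 3 lower, with a median log2 fold change of 5.12. VIM, the gene of the intermediate filament vimentin, had 1778, 1604 and 1891 CPM in PC-3, against 5.82, 5.74 and 6.43 CPM in LNCaP (log2 fold change 8.19 ± 0.14, adjusted p = 2.57e-07). CDH2, the gene of N-cadherin, had 72.3, 79.7 and 79.6 CPM in PC-3, against 0.0502, 0 and 0 CPM in LNCaP (1 read over the 3 LNCaP libraries, pooled ratio 4233-fold higher, interval 759 to 167300). CDH11, a second mesenchymal cadherin, had 313, 236 and 213 CPM in PC-3, against 0.0502, 0.119 and 0 CPM in LNCaP (3 reads over the 3 LNCaP libraries, pooled ratio 4569-fold higher, interval 1563 to 22160). Both were near 0 in every LNCaP library. ZEB1, a repressor of CDH1, had 50.3, 15.3 and 25.2 CPM in PC-3, against 0.201, 0.119 and 0.224 CPM in LNCaP (log2 fold change 7.30 ± 0.64, adjusted p = 5.73e-05), and SNAI2, a second repressor of that class, had 38.7, 38.5 and 38.5 CPM in PC-3, against 1.76, 1.31 and 1.4 CPM in LNCaP (log2 fold change 4.68 ± 0.15, adjusted p = 7.22e-07). FN1, the gene of fibronectin and usually read as mesenchymal, was lower in PC-3 with 127, 132 and 138 CPM in PC-3, against 977, 935 and 921 CPM in LNCaP (log2 fold change -2.84 ± 0.09, adjusted p = 8.74e-07). SNAI1 and COL1A1 were also lower (-0.85 and -0.66), and TWIST1 was not called (-0.09, adjusted p = 0.624).

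Both lines kept the simple keratins KRT8 and KRT18. KRT8 had 195, 240.5 and 249 CPM in PC-3, against 164, 179.5 and 209 CPM in LNCaP (log2 fold change 0.31 ± 0.14, adjusted p = 0.0845) and was not called, and KRT18 had 183, 179.7 and 199 CPM in PC-3, against 137, 139 and 146 CPM in LNCaP (log2 fold change 0.41 ± 0.09, adjusted p = 0.00585). Among keratins and basal cell genes 11 of 13 tested members were called higher and 0 lower, with a median log2 fold change of 6.85. KRT81, a hair-type keratin, had 1194, 1158 and 1433 CPM in PC-3, against 0 CPM in all 3 LNCaP libraries, at least 22720-fold higher in PC-3. KRT7 had 225, 239 and 278 CPM in PC-3, against 0, 0 and 0.224 CPM in LNCaP (log2 fold change 11.56 ± 0.55, adjusted p = 3.94e-06). Without LNCaP replicate 3, which held all 4 of its LNCaP reads, the log2 fold change of KRT7 was 14.71. KRT19 had 576, 601 and 707 CPM in PC-3, against 4.61, 5.68 and 6.04 CPM in LNCaP (log2 fold change 6.85 ± 0.18, adjusted p = 4.22e-07). KRT81 and KRT86 are close copies, and reads may be split between them. LAMB3, a chain of the basement membrane protein laminin-332, had 148, 148 and 158 CPM in PC-3, against 0.752, 0.717 and 0.671 CPM in LNCaP (log2 fold change 7.71 ± 0.13, adjusted p = 2.57e-07). The defining basal factor TP63 and the basal keratins KRT5 and KRT14 had 0 reads in PC-3 and too few in LNCaP to be tested.

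Integrins and laminins, the receptors and ligands that hold cells to the matrix, were mostly higher: 17 of 21 tested members were called higher and 3 lower, with a median log2 fold change of 2.38. ITGA3, an alpha chain that pairs with beta-1, had 545, 588 and 600.4 CPM in PC-3, against 7.52, 9.8 and 9.4 CPM in LNCaP (log2 fold change 6.02 ± 0.15, adjusted p = 4.15e-07). ITGB4, the hemidesmosome chain, had 41, 40.9 and 45.2 CPM in PC-3, against 0.251, 0.538 and 0.168 CPM in LNCaP (log2 fold change 7.04 ± 0.29, adjusted p = 1.82e-06). ITGA2 had a log2 fold change of 5.47, ITGB8 of 6.28 and LAMB1 of 6.16. ITGB1, the beta chain shared by many integrins, had 1667, 1592 and 1230.1 CPM in PC-3, against 252, 338 and 275 CPM in LNCaP (log2 fold change 2.38 ± 0.17, adjusted p = 1.89e-05). LAMA1, LAMB2 and LAMC1 were called lower, the last with 74.3, 79.7 and 80.6 CPM in PC-3, against 449.7, 510.1 and 464 CPM in LNCaP (log2 fold change -2.60 ± 0.10, adjusted p = 1.64e-06).

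Calcium-binding S100 proteins, annexins, galectins and caveolins gave the highest median of the lists, and 24 of 26 tested members were called higher and 2 lower, with a median log2 fold change of 8.24. With members at 0 in LNCaP set to their bound, the median was 7.96. S100A6 had 2853, 2882 and 3684 CPM in PC-3, against 0, 0.179 and 0.224 CPM in LNCaP (log2 fold change 14.48 ± 0.49, adjusted p = 1.11e-06). Without LNCaP replicate 1 its log2 fold change was 13.85. ANXA2, an annexin of membrane repair and plasmin assembly, had 2548, 2585 and 2907 CPM in PC-3, against 0.501, 0.358 and 0.28 CPM in LNCaP (log2 fold change 12.74 ± 0.22, adjusted p = 2.57e-07), and its binding partner S100A10 had 614, 578 and 697 CPM in PC-3, against 0 CPM in all 3 LNCaP libraries, at least 11330-fold higher in PC-3. LGALS1, the gene of galectin-1, had 2223, 2271 and 2810.00 CPM in PC-3, against 0.201, 0.119 and 0.336 CPM in LNCaP (log2 fold change 13.38 ± 0.29, adjusted p = 2.97e-07). CAV1, the coat protein of caveolae, had 645, 587 and 596 CPM in PC-3, against 0, 0.0597 and 0 CPM in LNCaP, from 1 read in LNCaP (1 read over the 3 LNCaP libraries, pooled ratio 33050-fold higher, interval 5932 to 1306000). CD44, a hyaluronan receptor in the same list, had 109, 121 and 118 CPM in PC-3, against 0.301, 0.299 and 0.0559 CPM in LNCaP (log2 fold change 8.99 ± 0.32, adjusted p = 1.14e-06). The exceptions were S100P and LGALS8, both lower in PC-3. S100P had 12.1, 12.8 and 12.1 CPM in PC-3, against 98.7, 98.6 and 100.4 CPM in LNCaP, and LGALS8 had a log2 fold change of -1.34.

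The urokinase system activates plasmin at the cell surface, and matrix metalloproteinases (MMPs) cut collagen and other matrix. In this list 17 of 23 tested members were called higher and 4 lower, with a median log2 fold change of 5.56. PLAU, the gene of urokinase, had 711, 748 and 776 CPM in PC-3, against 0.0502, 0 and 0 CPM in LNCaP (1 read over the 3 LNCaP libraries, pooled ratio 40690-fold higher, interval 7303 to 1607000). Its receptor PLAUR had 49.5, 50.8 and 66.6 CPM in PC-3, against 0.15, 0.597 and 0.28 CPM in LNCaP (log2 fold change 7.35 ± 0.36, adjusted p = 4.31e-06). PLAT, the tissue plasminogen activator, had 463, 339.8 and 567 CPM in PC-3, against 0, 0.0597 and 0 CPM in LNCaP (1 read over the 3 LNCaP libraries, pooled ratio 24090-fold higher, interval 4323 to 951600). The 3 genes were close to 0 in every LNCaP library. MMP14, a membrane-bound collagenase, had 166, 187 and 182 CPM in PC-3, against 0.0502, 0.119 and 0.0559 CPM in LNCaP (log2 fold change 11.08 ± 0.22, adjusted p = 2.57e-07), and its partner TIMP2 had 231, 342 and 332 CPM in PC-3, against 12.6, 13.2 and 14.5 CPM in LNCaP (log2 fold change 4.49 ± 0.19, adjusted p = 2.2e-06). MMP1, MMP3 and MMP10 are neighbours on chromosome 11 that together had 11 reads over the 3 LNCaP libraries. MMP15, MMP16, ADAM9 and ADAM10 were called lower in PC-3 (log2 fold changes -2.55, -2.08, -1.06 and -1.71).

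AP-1 sites are known in MMP promoters, and the MMP10 promoter is shown as an example (RefSeq, GRCh38.p14, chr11:102780579-102780878, minus strand). Capitals mark TGANTCA, the AP-1 site, searched on both strands.
MMP10 promoter: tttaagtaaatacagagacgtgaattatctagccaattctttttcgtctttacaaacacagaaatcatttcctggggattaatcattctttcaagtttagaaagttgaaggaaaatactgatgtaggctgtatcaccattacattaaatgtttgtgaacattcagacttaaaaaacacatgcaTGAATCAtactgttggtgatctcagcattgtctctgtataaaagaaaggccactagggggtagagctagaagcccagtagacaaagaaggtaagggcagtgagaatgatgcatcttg
The site lay in 5 of 18 promoters of the urokinase and MMP list (27.8%), in 4.34% of the promoters of tested protein-coding genes and in 7.76% of all promoters. AP-1 is a dimer of FOS and JUN family proteins. Of its subunit genes, 6 of 10 tested members were called higher and 1 lower, with a median log2 fold change of 1.18. FOSL1, the subunit known as FRA-1, had 334, 376 and 349.9 CPM in PC-3, against 0, 0.119 and 0.0559 CPM in LNCaP (3 reads over the 3 LNCaP libraries, pooled ratio 6479-fold higher, interval 2216 to 31420). FOSL2 and MAFF were higher (1.90 and 3.86), and FOS was lower with 0.34, 0.986 and 0.65 CPM in PC-3, against 7.07, 5.26 and 4.64 CPM in LNCaP (log2 fold change -3.02 ± 0.36, adjusted p = 0.000213). JUN was not called, and LNCaP replicate 2 stood apart for it, with 78.1, 82.6 and 82.4 CPM in PC-3, against 38.9, 5.14 and 41 CPM in LNCaP (adjusted p = 0.0718).

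YAP and TAZ are coactivators that bind TEAD factors when the Hippo kinases are off. Among them and their targets 17 of 23 tested members were called higher and 3 lower, with a median log2 fold change of 2.77. WWTR1, the gene of TAZ, had 262, 262 and 214 CPM in PC-3, against 8.83, 8.13 and 8.67 CPM in LNCaP (log2 fold change 4.85 ± 0.14, adjusted p = 5.42e-07), while YAP1 had 311, 241 and 172 CPM in PC-3, against 476, 313 and 141 CPM in LNCaP and was not called (log2 fold change -0.36 ± 0.43, adjusted p = 0.476). Its libraries overlapped between the lines. The matricellular target CCN2 had 35.9, 45.4 and 37.8 CPM in PC-3, against 0.0502, 0 and 0.0559 CPM in LNCaP (2 reads over the 3 LNCaP libraries, pooled ratio 1105-fold higher, interval 305 to 9131). The target NT5E, an ectonucleotidase, had 113, 102 and 89.6 CPM in PC-3, against 0.251, 0.0597 and 0.168 CPM in LNCaP (log2 fold change 9.20 ± 0.28, adjusted p = 6.9e-07). LATS1 and LATS2, the Hippo kinases, were called lower (-2.21 and -0.74).

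Receptor tyrosine kinases were divided, and 13 of 27 tested members were called higher and 10 lower, with a median log2 fold change of 0.51. Of all tested protein-coding genes 40.1% were higher and 34.8% lower, so such a division is not particular to this list. AXL, the GAS6 receptor, had 299, 273 and 239 CPM in PC-3, against 0.0502, 0.0597 and 0 CPM in LNCaP (2 reads over the 3 LNCaP libraries, pooled ratio 7372-fold higher, interval 2040 to 60890). MET, the receptor of hepatocyte growth factor, had 386, 385 and 342 CPM in PC-3, against 0.401, 0.119 and 0.615 CPM in LNCaP (log2 fold change 9.88 ± 0.37, adjusted p = 1.57e-06). EPHA2, an ephrin receptor, had 286, 314 and 323 CPM in PC-3, against 9.38, 9.68 and 11.6 CPM in LNCaP (log2 fold change 4.91 ± 0.14, adjusted p = 5.42e-07). In all 3 genes the lines lay well apart. EGFR, the epidermal growth factor receptor, had 19.3, 18 and 27.1 CPM in PC-3, against 9.13, 11.4 and 9.73 CPM in LNCaP (log2 fold change 1.09 ± 0.19, adjusted p = 0.00152). ERBB3, its kinase-impaired relative, was lower with 6.01, 7.96 and 8.45 CPM in PC-3, against 89.6, 109 and 102 CPM in LNCaP (log2 fold change -3.74 ± 0.16, adjusted p = 2.33e-06), and IGF1R, the insulin-like growth factor receptor, was lower too (-2.62).

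Inflammatory genes under NF-kB, a factor that is released into the nucleus by cytokine signals, were higher in PC-3. In this list 23 of 27 tested members were called higher and 2 lower, with a median log2 fold change of 6.46, or 5.74 with members at 0 in LNCaP set to their bound. CXCL8, the neutrophil chemokine interleukin-8, had 599, 530.3 and 704 CPM in PC-3, against 0.1, 0.119 and 0.112 CPM in LNCaP (log2 fold change 12.33 ± 0.23, adjusted p = 2.57e-07). CXCL1, a second neutrophil chemokine, had 233, 221 and 224 CPM in PC-3, against 0 CPM in all 3 LNCaP libraries, at least 4098-fold higher. LIF, an interleukin-6 family cytokine, had 130.04, 129.6 and 141 CPM in PC-3, against 1.25, 1.14 and 0.671 CPM in LNCaP (log2 fold change 7.02 ± 0.22, adjusted p = 7.22e-07), and IL1B had 40.6, 40.7 and 46.3 CPM in PC-3, against 0.501, 0.358 and 0.559 CPM in LNCaP (log2 fold change 6.46 ± 0.18, adjusted p = 5.05e-07). IL6 itself had 3.51, 4.25 and 4.66 CPM in PC-3, against 0 CPM in all 3 LNCaP libraries, at least 75.7-fold higher from low counts. ICAM1, the leukocyte adhesion ligand, had 234, 254 and 269 CPM in PC-3, against 0.1, 0.179 and 0 CPM in LNCaP (log2 fold change 11.29 ± 0.39, adjusted p = 1.16e-06). Of the subunits, RELB had 23.1, 26 and 31.5 CPM in PC-3, against 1.71, 1.79 and 1.62 CPM in LNCaP (log2 fold change 3.97 ± 0.17, adjusted p = 2.18e-06), NFKB2 was slightly higher (0.88), NFKB1 slightly lower (-0.46), and REL and RELA were not called (-0.60 and 0.36). CXCL16 was the other member called lower (-2.16).

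The CXCL genes of chromosome 4 lie side by side, and RASSF6, CXCL8, CXCL6, CXCL1, CXCL5, CXCL3 and CXCL2 had 13 reads in all over the 3 LNCaP libraries, against 38780 over the 3 PC-3 libraries. Each of them had a mean of at least 1.87 CPM in PC-3. The genes on both sides were present in both lines, ANKRD17 at 90.8 CPM in PC-3 and 162 CPM in LNCaP, and MTHFD2L at 138 CPM in PC-3 and 163 CPM in LNCaP. CXCL6 varied within PC-3, with 424, 262 and 139.8 CPM in PC-3, against 0 CPM in all 3 LNCaP libraries.

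Promoters of CXCL8 and CXCL1 are shown because they are the textbook kappa B promoters of this cluster (RefSeq, GRCh38.p14, chr4:73740319-73740618 and chr4:73869143-73869442, both plus strand). Capitals mark GGNNNTTCC, the kappa B site searched on both strands.
CXCL8 promoter: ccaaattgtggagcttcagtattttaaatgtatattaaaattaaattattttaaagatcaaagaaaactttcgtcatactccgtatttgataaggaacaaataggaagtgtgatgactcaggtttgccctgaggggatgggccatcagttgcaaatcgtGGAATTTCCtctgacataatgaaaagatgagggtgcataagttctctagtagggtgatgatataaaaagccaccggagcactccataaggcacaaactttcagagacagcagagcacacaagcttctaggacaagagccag
CXCL1 promoter: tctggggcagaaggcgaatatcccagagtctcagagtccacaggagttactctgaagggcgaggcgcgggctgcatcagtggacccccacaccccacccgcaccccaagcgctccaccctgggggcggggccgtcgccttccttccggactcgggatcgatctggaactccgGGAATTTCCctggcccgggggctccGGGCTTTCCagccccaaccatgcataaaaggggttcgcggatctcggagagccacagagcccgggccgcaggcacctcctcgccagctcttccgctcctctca
CXCL8 held 1 site and CXCL1 held 2. The site was found in 16 of the 23 list members with a promoter entry (69.6%), in 23% of the promoters of tested protein-coding genes and in 20.1% of all promoters. The list was drawn from known NF-kB targets, so the share partly reflects how the list was made.

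Interferon-stimulated genes, which carry antiviral functions, were also higher in PC-3, while STAT3 and STAT5B were nearly absent from it. In the list of JAK, STAT and interferon genes 38 of 47 tested members were called higher and 6 lower, with a median log2 fold change of 3.08. IFIT1, which binds viral RNA, had 57.9, 55.9 and 52.9 CPM in PC-3, against 0.501, 0.478 and 0.727 CPM in LNCaP (log2 fold change 6.59 ± 0.17, adjusted p = 4.57e-07). IFIT3, its partner in a complex, had 50.2, 56.1 and 62.8 CPM in PC-3, against 0.903, 0.478 and 0.615 CPM in LNCaP (log2 fold change 6.37 ± 0.23, adjusted p = 1.08e-06). ISG15, a ubiquitin-like protein, had 449, 460.2 and 579 CPM in PC-3, against 27, 27.3 and 28.4 CPM in LNCaP (log2 fold change 4.17 ± 0.14, adjusted p = 9.47e-07). OAS2, a sensor of double-stranded RNA, had 16, 20.3 and 21.8 CPM in PC-3, against 0.1, 0.119 and 0.0559 CPM in LNCaP (log2 fold change 7.59 ± 0.28, adjusted p = 1.2e-06), and MX1, an antiviral GTPase, had 44.3, 45.1 and 48.1 CPM in PC-3, against 1.91, 2.75 and 1.51 CPM in LNCaP (log2 fold change 4.48 ± 0.22, adjusted p = 3.41e-06). The groups did not overlap in any of these 5 genes. Not all members took part: USP18, a brake on interferon signalling, had 8.84, 7.43 and 9.43 CPM in PC-3, against 8.88, 9.56 and 8.28 CPM in LNCaP and was not called (log2 fold change -0.06 ± 0.15, adjusted p = 0.732). IFITM1, a membrane restriction factor, was called but uneven in PC-3, with 45.4, 8.34 and 58.4 CPM in PC-3, against 0.1, 0.478 and 0 CPM in LNCaP (log2 fold change 7.59 ± 1.10, adjusted p = 0.000644).

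The upstream genes were divided. JAK1, a kinase of interferon receptors, had 86.3, 78.5 and 55.4 CPM in PC-3, against 9.83, 7.23 and 8.84 CPM in LNCaP (log2 fold change 3.08 ± 0.21, adjusted p = 1.65e-05), and JAK2 was lower (-1.200). STAT2, a partner in the interferon response, was slightly lower (-0.68). STAT6, the interleukin-4 STAT, had 29, 36.2 and 35.9 CPM in PC-3, against 1.15, 1.55 and 1.29 CPM in LNCaP (log2 fold change 4.66 ± 0.18, adjusted p = 1.37e-06). STAT3, which serves interleukin-6, had 0.34, 0.227 and 0.542 CPM in PC-3, against 147, 159 and 149 CPM in LNCaP (log2 fold change -8.70 ± 0.22, adjusted p = 4.19e-07), and STAT5B, which serves growth hormone and prolactin, had 0 CPM in all 3 PC-3 libraries, against 35.9, 39 and 37.6 CPM in LNCaP, at least 389-fold lower in PC-3. SOCS3, a feedback inhibitor known as a STAT3 target, was higher, with 36.7, 39.1 and 38.5 CPM in PC-3, against 0.1, 0.119 and 0.112 CPM in LNCaP (log2 fold change 8.33 ± 0.17, adjusted p = 2.57e-07).

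The promoters of 3 of these genes are shown for their interferon-stimulated response elements, the site bound by STAT2 with IRF9 (RefSeq, GRCh38.p14, chr10:89392373-89392672, chr10:89327747-89328046 and chr1:1013247-1013546, all plus strand). Capitals mark the element, searched as GAAA, any 2 bases and GAAA on both strands.
IFIT1 promoter: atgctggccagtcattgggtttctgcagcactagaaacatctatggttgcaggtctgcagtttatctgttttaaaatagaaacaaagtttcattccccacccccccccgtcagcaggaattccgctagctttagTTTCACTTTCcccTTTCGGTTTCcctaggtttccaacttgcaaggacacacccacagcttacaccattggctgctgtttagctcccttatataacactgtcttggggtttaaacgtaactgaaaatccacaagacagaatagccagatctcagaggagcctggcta
IFIT3 promoter: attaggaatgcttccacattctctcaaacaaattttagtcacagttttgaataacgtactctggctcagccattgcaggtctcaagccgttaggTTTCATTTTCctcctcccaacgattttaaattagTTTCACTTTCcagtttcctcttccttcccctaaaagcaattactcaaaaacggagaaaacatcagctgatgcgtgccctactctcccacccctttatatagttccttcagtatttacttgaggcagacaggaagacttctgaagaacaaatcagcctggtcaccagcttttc
ISG15 promoter: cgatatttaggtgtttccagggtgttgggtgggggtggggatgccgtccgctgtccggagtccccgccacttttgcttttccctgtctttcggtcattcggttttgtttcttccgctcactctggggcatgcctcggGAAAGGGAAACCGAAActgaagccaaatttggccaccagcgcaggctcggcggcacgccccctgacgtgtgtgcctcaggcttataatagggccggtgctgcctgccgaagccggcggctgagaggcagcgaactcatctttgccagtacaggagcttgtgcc
Each held 2 elements, and those of ISG15 overlap. The element was found in 15 of 38 promoters of the interferon list (39.5%), in 9 of 16 of the MHC class I list (56.2%), in 2.76% of the promoters of tested protein-coding genes and in 3.65% of all promoters. The interferon list holds known interferon-stimulated genes, so its share partly reflects how the list was made.

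MHC class I genes present peptides to T cells, and 19 of 20 tested members were called higher and 1 lower, with a median log2 fold change of 1.48. HLA-E had 166, 181 and 198 CPM in PC-3, against 11.2, 13.6 and 14.5 CPM in LNCaP (log2 fold change 3.79 ± 0.15, adjusted p = 1.45e-06). The HLA genes vary between people and share sequence, so mapping can differ between lines. PSMB8, a subunit of the immunoproteasome, had 31.1, 36.7 and 48.8 CPM in PC-3, against 0.501, 0.239 and 0.0559 CPM in LNCaP (log2 fold change 7.11 ± 0.46, adjusted p = 1.42e-05), and its log2 fold change was 7.97 without LNCaP replicate 1. PSMB9, a second such subunit, had 11.6, 11.3 and 12.9 CPM in PC-3, against 0.351, 0.538 and 0.447 CPM in LNCaP (log2 fold change 4.73 ± 0.21, adjusted p = 2.45e-06). NLRC5, known as the activator of class I genes, was the 1 member lower in PC-3, with 0.794, 0.531 and 0.433 CPM in PC-3, against 4.46, 5.02 and 5.43 CPM in LNCaP (log2 fold change -3.08 ± 0.26, adjusted p = 4.06e-05). B2M, the light chain of class I, had 614, 145 and 710.3 CPM in PC-3, against 147, 149.7 and 172 CPM in LNCaP. PC-3 replicate 2 lay just below the LNCaP values and the rest of PC-3 above them, so the ranges of the lines overlapped. The call (log2 fold change 1.65 ± 0.53, adjusted p = 0.0262) was lost when any 1 of the other 5 libraries was left out (adjusted p between 0.0597 and 0.0895) and was kept without PC-3 replicate 2 (log2 fold change 2.10, adjusted p = 8.69e-05).

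**Figure D3:**
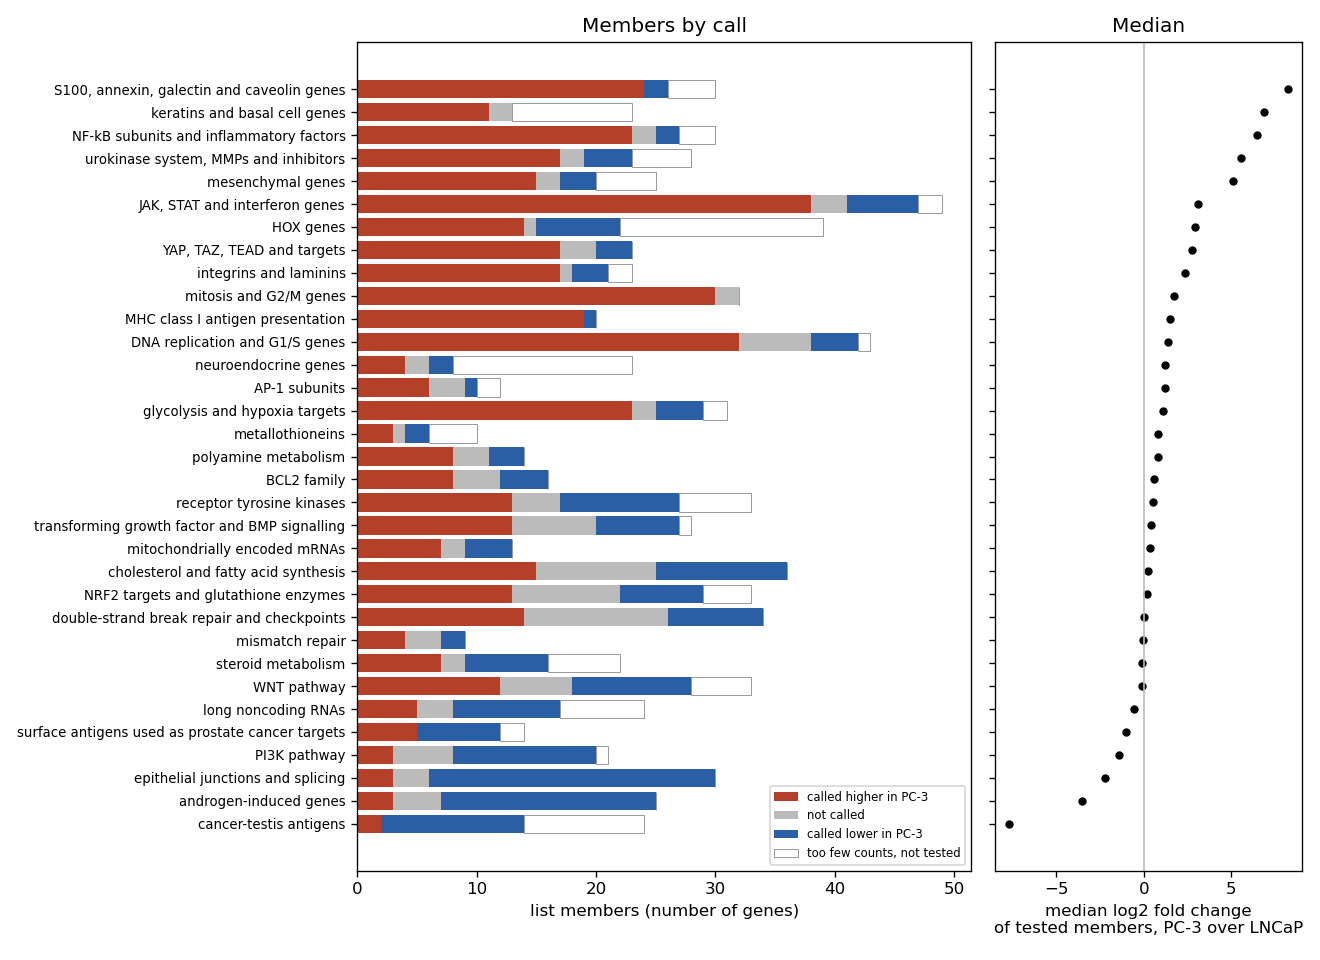
Left, bars give the number of members of gene lists that were called higher in PC-3 (red), not called (grey), called lower in PC-3 (blue) or not tested for lack of counts (white). Right, points give the median log2 fold change, PC-3 over LNCaP, of the tested members, which ran between -7.71 for cancer-testis antigens and 8.24 for S100, annexin, galectin and caveolin genes.

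In the PI3K pathway 3 of 20 tested members were called higher and 12 lower, with a median log2 fold change of -1.40. PIK3R1, a regulatory subunit, had 1.81, 3.49 and 5.42 CPM in PC-3, against 47, 108 and 48.1 CPM in LNCaP (log2 fold change -4.24 ± 0.50, adjusted p = 0.000255), and the catalytic subunit PIK3CD was lower (-2.81). AKT2 was lower (-0.97), and AKT1 was not called (0.02, adjusted p = 0.914). MTOR, TSC1 and TSC2 were lower by similar amounts (-1.40, -1.48 and -1.64).

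Some genes of growth arrest and stress also differed. SESN1, a stress sensor, had 12, 10.2 and 8.45 CPM in PC-3, against 174, 145 and 153 CPM in LNCaP (log2 fold change -3.95 ± 0.17, adjusted p = 2.03e-06). CDKN1A, the gene of the cell cycle inhibitor p21, had 55.1, 68 and 63.1 CPM in PC-3, against 151, 161 and 167 CPM in LNCaP (log2 fold change -1.36 ± 0.12, adjusted p = 4.24e-05), and MDM2, a ubiquitin ligase, was lower (-1.46). PLTP, a phospholipid transfer protein, was higher, with 64.9, 79.2 and 63 CPM in PC-3, against 0 CPM in all 3 LNCaP libraries, at least 1280-fold higher.

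DNA repair genes are of interest in a series on radioligand therapy. In mismatch repair 4 of 9 tested members were called higher and 2 lower, with a median log2 fold change of -0.07. EXO1, the exonuclease, was higher (2.27), and PMS2 was lower (-1.43). In double-strand break repair and checkpoints 14 of 34 tested members were called higher and 8 lower, with a median log2 fold change of 0.01, and the median lay at that of all genes. The kinase CHEK1 had 115, 97.6 and 79.9 CPM in PC-3, against 24.5, 13.1 and 18.3 CPM in LNCaP (log2 fold change 2.39 ± 0.26, adjusted p = 0.000156). RAD50, of the MRE11 complex, was lower with 6.8, 5.53 and 7.37 CPM in PC-3, against 66.5, 56.9 and 61.9 CPM in LNCaP (log2 fold change -3.24 ± 0.14, adjusted p = 2.43e-06), as was BARD1, the partner of BRCA1, with 49.9, 47.5 and 27.7 CPM in PC-3, against 367, 269 and 301 CPM in LNCaP (log2 fold change -2.90 ± 0.26, adjusted p = 6.01e-05). ATM, ATR and PRKDC, the damage kinases, were all lower (-1.50, -1.57 and -1.37), and PARP1 was not called (-0.03, adjusted p = 0.803).

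Cell cycle genes were higher in PC-3. Of mitosis and G2/M genes, 30 of 32 tested members were called higher and 0 lower, with a median log2 fold change of 1.73. UBE2C, of the anaphase ligase, had 171, 181 and 194 CPM in PC-3, against 19.5, 21.2 and 21.8 CPM in LNCaP (log2 fold change 3.13 ± 0.11, adjusted p = 1.09e-06), BIRC5, the gene of survivin, had 87.8, 86.4 and 112 CPM in PC-3, against 8.42, 9.62 and 10.2 CPM in LNCaP (log2 fold change 3.34 ± 0.15, adjusted p = 2.8e-06), and MKI67, a proliferation marker, had 38.2, 39.3 and 53.1 CPM in PC-3, against 21.6, 27.4 and 28 CPM in LNCaP (log2 fold change 0.76 ± 0.17, adjusted p = 0.00515). CENPE and ASPM were not called (-0.52 and 0.01). Of DNA replication and G1/S genes, 32 of 42 tested members were called higher and 4 lower, with a median log2 fold change of 1.36. TK1, thymidine kinase, had 294, 309 and 329.6 CPM in PC-3, against 32.3, 37.3 and 30.4 CPM in LNCaP (log2 fold change 3.22 ± 0.12, adjusted p = 1.44e-06), and TYMS, thymidylate synthase, had 284, 274 and 288 CPM in PC-3, against 41, 38.5 and 44.2 CPM in LNCaP (log2 fold change 2.77 ± 0.10, adjusted p = 1.32e-06). CDKN2A, an inhibitor of CDK4 and CDK6, had 100.1, 169 and 217 CPM in PC-3, against 9.38, 10.9 and 11.1 CPM in LNCaP (log2 fold change 3.95 ± 0.30, adjusted p = 3.2e-05), and its neighbour CDKN2B had 151, 141 and 100.5 CPM in PC-3, against 9.73, 5.74 and 5.43 CPM in LNCaP (log2 fold change 4.23 ± 0.30, adjusted p = 2.08e-05). POLE, CCNE1 and CDKN1B were among the members called lower. No division rate was measured.

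Glycolysis and hypoxia targets were mostly higher, and 23 of 29 tested members were called higher and 4 lower, with a median log2 fold change of 1.11. LDHA, lactate dehydrogenase, had 2048, 2172 and 2455 CPM in PC-3, against 291, 393 and 283 CPM in LNCaP (log2 fold change 2.79 ± 0.16, adjusted p = 7.42e-06), and PGK1, which makes ATP in glycolysis, had 2859, 2490.1 and 2866 CPM in PC-3, against 497, 544 and 514 CPM in LNCaP (log2 fold change 2.40 ± 0.10, adjusted p = 2.01e-06). SLC16A3, the lactate exporter MCT4, had 423, 470.3 and 476 CPM in PC-3, against 1.2, 1.31 and 1.06 CPM in LNCaP (log2 fold change 8.57 ± 0.15, adjusted p = 2.57e-07). The lower members were GPI, PFKM, VEGFA and EGLN3 (-0.64, -1.44, -1.11 and -4.10).

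Lipid synthesis genes went both ways, as tested protein-coding genes did as a whole (40.1% higher and 34.8% lower). In cholesterol and fatty acid synthesis 15 of 36 tested members were called higher and 11 lower, with a median log2 fold change of 0.23. Of the sterol branch, the enzymes FDPS, SQLE and MVD were higher (1.71, 1.75 and 1.32). Of the fatty acid branch, ACACA, FASN and SCD were lower, FASN with 132, 141 and 152 CPM in PC-3, against 611, 681 and 680.3 CPM in LNCaP (log2 fold change -2.21 ± 0.11, adjusted p = 3.49e-06). ELOVL7, a fatty acid elongase, had 4.76, 3.11 and 2.06 CPM in PC-3, against 389.9, 269.6 and 295 CPM in LNCaP (log2 fold change -6.59 ± 0.33, adjusted p = 5.11e-06). SREBF1, the regulator of that branch, was lower (-2.57), as was SREBF2 (-1.50).

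Of NRF2 targets and glutathione enzymes, 13 of 29 tested members were called higher and 7 lower, with a median log2 fold change of 0.19. GSTP1, a glutathione transferase, had 509, 543 and 537 CPM in PC-3, against 0.201, 0.179 and 0.224 CPM in LNCaP (log2 fold change 11.30 ± 0.16, adjusted p = 2.57e-07), while HMOX1 and NQO1, common NRF2 targets, were not called (0.30 and 0.11). SLC7A11, the cystine importer, was lower with 108, 95.1 and 46.9 CPM in PC-3, against 722, 511 and 548 CPM in LNCaP (log2 fold change -2.83 ± 0.33, adjusted p = 0.000237). GSTA1 had 0 CPM in all 3 PC-3 libraries, against 16.9, 18.9 and 21.5 CPM in LNCaP, at least 198-fold lower in PC-3. The GSTP1 promoter is shown because its methylation in prostate cancer is well known, although methylation was not measured here (RefSeq, GRCh38.p14, chr11:67583562-67583861, plus strand). Capitals mark CG pairs.
GSTP1 promoter: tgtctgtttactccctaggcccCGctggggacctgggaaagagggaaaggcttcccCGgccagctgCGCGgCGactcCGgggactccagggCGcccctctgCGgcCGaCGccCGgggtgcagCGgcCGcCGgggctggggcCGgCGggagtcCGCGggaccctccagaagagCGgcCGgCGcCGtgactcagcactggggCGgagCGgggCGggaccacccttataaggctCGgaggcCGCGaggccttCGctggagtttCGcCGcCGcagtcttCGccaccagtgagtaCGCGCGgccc
It holds 36 CG pairs, against a median of 26 over the promoters of tested protein-coding genes and 20 over those of the genes silent in LNCaP.

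Metallothioneins bind zinc, and in their list, which also holds their activator MTF1, 3 of 6 tested members were called higher and 2 lower, with a median log2 fold change of 0.83. MT2A had 938, 998 and 1187 CPM in PC-3, against 185, 199 and 205 CPM in LNCaP (log2 fold change 2.40 ± 0.12, adjusted p = 4.31e-06), and MT1G had 0.34, 0.0758 and 0.217 CPM in PC-3, against 63, 50.2 and 56.1 CPM in LNCaP (log2 fold change -8.12 ± 0.29, adjusted p = 1.12e-06), so members went opposite ways. These genes are near-identical copies, and their counts are uncertain. In polyamine metabolism 8 of 14 tested members were called higher and 3 lower, with a median log2 fold change of 0.81. ODC1, the first enzyme, had 2732, 3288 and 3083 CPM in PC-3, against 414, 423 and 443 CPM in LNCaP (log2 fold change 2.83 ± 0.11, adjusted p = 1.28e-06). AMD1, which supplies the aminopropyl donor, was lower with 133, 137 and 143 CPM in PC-3, against 543, 632 and 559 CPM in LNCaP (log2 fold change -2.07 ± 0.10, adjusted p = 4.09e-06).

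Of the BCL2 family, 8 of 16 tested members were called higher and 4 lower, with a median log2 fold change of 0.60. BCL2L1, the gene of the survival protein BCL-XL, had 271, 234 and 272 CPM in PC-3, against 63.3, 106 and 73.7 CPM in LNCaP (log2 fold change 1.68 ± 0.20, adjusted p = 0.000249), and BCL2 was lower (-1.05, adjusted p = 0.0182). The members that promote death went both ways. BAK1, BAX, BAD and PMAIP1 were higher (2.25, 1.199, 2.71 and 2.75), as were BID and BOK (1.35 and 0.87), and HRK, BIK and BMF were lower (-1.99, -0.93 and -0.54). HRK had 1.36, 1.14 and 1.41 CPM in PC-3, against 4.46, 5.56 and 5.48 CPM in LNCaP. BCL2L11 was not called (-1.68, adjusted p = 0.0614).

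Some signals of the TGF-beta and WNT families were nearly absent from LNCaP. In the TGF-beta and BMP list 13 of 27 tested members were called higher and 7 lower, with a median log2 fold change of 0.43. TGFB1, the ligand, had 72.8, 81.5 and 83.1 CPM in PC-3, against 0.201, 0.119 and 0.0559 CPM in LNCaP (log2 fold change 9.18 ± 0.25, adjusted p = 4.73e-07). TGFBR2, a receptor, had 147, 164 and 158 CPM in PC-3, against 0.602, 0.299 and 0.336 CPM in LNCaP (log2 fold change 8.51 ± 0.23, adjusted p = 4.83e-07). INHBA, an activin chain, had 117, 95.4 and 64.5 CPM in PC-3, against 0, 0.179 and 0 CPM in LNCaP (3 reads over the 3 LNCaP libraries, pooled ratio 1677-fold higher, interval 573 to 8137). None of these overlapped between the lines. FST, the activin antagonist, had 249, 209.9 and 179 CPM in PC-3, against 0, 0.0597 and 0.0559 CPM in LNCaP (2 reads over the 3 LNCaP libraries, pooled ratio 5774-fold higher, interval 1598 to 47690). SMAD7, a feedback inhibitor of the pathway, was lower with 1.02, 1.59 and 1.95 CPM in PC-3, against 25.3, 26.6 and 26.1 CPM in LNCaP (log2 fold change -4.08 ± 0.21, adjusted p = 4.11e-06). In the WNT pathway 12 of 28 tested members were called higher and 10 lower, with a median log2 fold change of -0.12. Their shares lie near the 40.1% higher and 34.8% lower of all tested protein-coding genes. DKK1, a secreted WNT antagonist, had 3115, 2351 and 2083 CPM in PC-3, against 0.301, 0 and 0.0559 CPM in LNCaP (log2 fold change 14.17 ± 0.57, adjusted p = 2.07e-06, or 15.995 without LNCaP replicate 1), while AXIN2 and RNF43, feedback targets of the pathway, were lower (-1.28 and -1.83).

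HOX genes record position along the body axis, and 14 of 22 tested members were called higher and 7 lower, with a median log2 fold change of 2.92. HOXA13 had 64.4, 49.5 and 38.3 CPM in PC-3, against 0, 0.0597 and 0 CPM in LNCaP (1 read over the 3 LNCaP libraries, pooled ratio 2749-fold higher, interval 493 to 108600), and HOXA9 had 35.8, 38.2 and 30.7 CPM in PC-3, against 0.702, 0.896 and 0.839 CPM in LNCaP (log2 fold change 5.42 ± 0.17, adjusted p = 7.27e-07). HOXC9 and HOXC12 were among those lower, HOXC9 with 0.794, 0.91 and 0.542 CPM in PC-3, against 7.67, 9.26 and 11.5 CPM in LNCaP (log2 fold change -3.62 ± 0.27, adjusted p = 2.36e-05). Cancer-testis antigens, germline genes that some tumours express, were lower in PC-3: 2 of 14 tested members were called higher and 12 lower, with a median log2 fold change of -7.71, or -7.20 with members at 0 in PC-3 set to their bound. MAGEA10 had 0 CPM in all 3 PC-3 libraries, against 95.2, 73.2 and 79.2 CPM in LNCaP, at least 866-fold lower, and MAGEA3 had 0.454, 0.227 and 0.975 CPM in PC-3, against 83.3, 94.7 and 96.9 CPM in LNCaP (log2 fold change -7.44 ± 0.34, adjusted p = 3.27e-06). The members called higher were MAGED1 and MAGED2, which most tissues express. MAGEA genes are close copies, and reads may be split among them.

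Of the long noncoding RNAs listed, 5 of 17 tested members were called higher and 9 lower, with a median log2 fold change of -0.55. SCHLAP1, described in prostate cancer, had 1.02, 1.36 and 0.325 CPM in PC-3, against 27.5, 31.5 and 28.2 CPM in LNCaP (log2 fold change -4.93 ± 0.34, adjusted p = 1.83e-05), and NEAT1, the scaffold of paraspeckles, had 23.4, 19.9 and 21.8 CPM in PC-3, against 340.2, 229.7 and 348 CPM in LNCaP (log2 fold change -3.82 ± 0.20, adjusted p = 4.5e-06). LINC01116 had 45.2, 45.8 and 48.5 CPM in PC-3, against 0 CPM in all 3 LNCaP libraries, at least 845-fold higher. By gene type, leaving out chromosome Y and XIST, 57.9% of 763 lincRNAs were called lower and 26.3% higher, and of 848 antisense transcripts 57.9% were lower and 19.7% higher. Processed pseudogenes went the other way, with 46.3% of 711 higher and 16.3% lower. Counts of antisense genes are uncertain because these libraries do not mark strand, and those of processed pseudogenes because they copy their parent genes.

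Of the 13 mitochondrially encoded mRNAs, 7 of 13 tested members were called higher and 4 lower, with a median log2 fold change of 0.35. MT-ATP6, a subunit of ATP synthase, had 3609.5, 4097 and 3945 CPM in PC-3, against 445, 483 and 499 CPM in LNCaP (log2 fold change 3.03 ± 0.10, adjusted p = 8.5e-07). The other 12 had log2 fold changes between -1.93 (MT-ND6) and 0.96 (MT-ND3), and MT-ATP8, which overlaps MT-ATP6, had 0.55. The nuclear pseudogene MTATP6P1, a near copy of MT-ATP6, had 422, 480.4 and 451 CPM in PC-3, against 284, 341 and 325 CPM in LNCaP (log2 fold change 0.51 ± 0.11, adjusted p = 0.00419).

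Neuroendocrine genes, which mark another route to androgen independence, were mostly too low to test: of 23 listed, 4 of 8 tested members were called higher and 2 lower, with a median log2 fold change of 1.23. FOXA2, a forkhead factor, was higher with 34.1, 38.9 and 40.6 CPM in PC-3, against 0 CPM in all 3 LNCaP libraries. PEG10, a retrotransposon-derived gene, was higher with 319.6, 273 and 204 CPM in PC-3, against 1.45, 1.31 and 1.23 CPM in LNCaP (log2 fold change 7.62 ± 0.24, adjusted p = 7.22e-07). SYT4, a synaptotagmin of secretory vesicles, went the other way, with 0.113, 0.152 and 0 CPM in PC-3, against 39.9, 27.4 and 31.3 CPM in LNCaP (3 reads over the 3 PC-3 libraries, pooled ratio 346-fold lower, interval 118 to 1680). The synaptotagmin gene SYT1 and the enolase gene ENO2 were also called higher (ENO2 by a log2 fold change of 2.51), and REST, a repressor of neuronal genes, was lower (-1.19, adjusted p = 0.0110). CHGA, CHGB, INSM1 and NEUROD1 had too few counts to test. Lists of markers of other cells were summed over their 8 members each. Fibroblast markers summed to 9.32 to 12.8 CPM in PC-3 and 13.9 to 15.4 CPM in LNCaP, with 2 of the 8 at 0 in PC-3 and 3 in LNCaP. Leukocyte markers summed to 32.1 to 38.6 CPM in PC-3 and 1.35 to 1.9 CPM in LNCaP, with 3 of the 8 at 0 in PC-3 and 1 in LNCaP. CD68, a lysosomal protein that is not limited to leukocytes, had 31, 37.1 and 34.2 CPM in PC-3, against 0.953, 1.25 and 1.29 CPM in LNCaP (log2 fold change 4.87 ± 0.17, adjusted p = 1.02e-06) and was the 1 member with enough counts to test. Endothelial markers summed to 37.5 to 42.9 CPM in PC-3 and 6.62 to 7.53 CPM in LNCaP, with 3 at 0 in PC-3 and 5 in LNCaP. KDR alone had 24.9, 24.4 and 25.4 CPM in PC-3, against 0 CPM in all 3 LNCaP libraries, and VWF had 0 CPM in all 3 PC-3 libraries, against 4.56, 5.02 and 5.2 CPM in LNCaP. Neuroendocrine markers summed to 1.95 to 3.11 CPM in PC-3 and 2.35 to 2.81 CPM in LNCaP. Basal markers summed to 215 to 230 CPM in PC-3 and 7.38 to 8.12 CPM in LNCaP, with 3 of the 8 at 0 in PC-3 and 1 in LNCaP. LAMB3 gave most of the PC-3 sum. Luminal markers (11 genes) summed to 736 to 810 CPM in PC-3 and 4204 to 4622 CPM in LNCaP. Of the luminal markers, HOXB13, TMPRSS2, KRT8 and KRT18 were present in PC-3, and all but MSMB in LNCaP. The part of such markers in the results above was not tested.

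The 12 genes with the largest fitted log2 fold change in each direction, among called protein-coding genes with 10 CPM or more in the higher line and no overlap, were close to silent in the other line. For genes at 0 reads that fitted value depends on the prior count of the fit, so it chose which genes are named here and their order says nothing of size. GREB1 and KLK4, which are not among the 12 lower, had pooled ratios of 1622-fold and 1331-fold, above every bound given for those 12. MSMP, also named PC3-secreted microprotein, had 1326, 1324 and 1443 CPM in PC-3, against 0 CPM in all 3 LNCaP libraries, at least 24720-fold higher. With MSMP, the 12 higher were KRT81, S100A10, CXCL6, PLAU, CXCL1, IGFBP4, S100A6, CAV1, ANXA3, TFPI2 and ADIRF. IGFBP4, a binding protein of insulin-like growth factors, had 645, 699 and 688 CPM in PC-3, against 0.0502, 0 and 0 CPM in LNCaP (1 read over the 3 LNCaP libraries, pooled ratio 37140-fold higher, interval 6665 to 1467000). TFPI2, a protease inhibitor, varied within PC-3, with 762, 519 and 357 CPM in PC-3, against 0, 0.0597 and 0 CPM in LNCaP (1 read over the 3 LNCaP libraries, pooled ratio 29450-fold higher, interval 5285 to 1163000). On the lower side HEXA, a lysosomal hexosaminidase subunit, had 0 CPM in all 3 PC-3 libraries, against 91.8, 101 and 104 CPM in LNCaP, at least 1029-fold lower. With HEXA and MAGEA10, the 12 lower were ABCA12, ZNF300, GLYATL1, GRK1, TRIM49D2, ECHDC3, STAT5B, PCDHB5, PRRT1B and ALDH16A1, these 10 each with 0 reads in PC-3 and bounds between 373 and 540.2-fold. ABCA12, a lipid transporter, had 0 CPM in all 3 PC-3 libraries, against 47.4, 59.9 and 47.6 CPM in LNCaP. ALDH16A1, an aldehyde dehydrogenase family member, had 0 CPM in all 3 PC-3 libraries, against 35.5, 35.8 and 36.5 CPM in LNCaP. TRIM49D2 has a near-identical copy, TRIM49D1, so its count is uncertain.

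Among protein-coding genes outside chromosome Y, 165 were silent in PC-3 and 306 in LNCaP. Silent means at most 3 reads over the 3 libraries of a line and a mean of 5 CPM or more in the other. A count of 0 allows up to 0.096 CPM in PC-3 and 0.055 CPM in LNCaP over the 3 libraries, from counting error only. Besides those named above, the PC-3 side holds GPR158, an orphan receptor, with 0.34, 0 and 0 CPM in PC-3, against 347, 298 and 306 CPM in LNCaP, and RAB5C, an endosomal GTPase, with 0.227, 0 and 0.108 CPM in PC-3, against 164, 145 and 146 CPM in LNCaP. Also on it, COLEC12, a scavenger receptor, had 0, 0.152 and 0 CPM in PC-3, against 142, 149.6 and 134 CPM in LNCaP. The LNCaP side holds IGFBP6, a second binding protein of that family, with 256, 278 and 296 CPM in PC-3, against 0.1, 0 and 0 CPM in LNCaP.

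Some silent genes lay next to each other. Runs were taken over protein-coding genes with a mean of 1 CPM or more in either line, as 3 or more consecutive genes with at most 10 reads each over the 3 libraries of a line. They numbered 14 in PC-3 and 16 in LNCaP. The run with the most genes in PC-3 was on chromosome 17, at 42101404 to 42311943 of GRCh38, where DHX58, KAT2A, the unnamed gene ENSG00000267261, RAB5C, GHDC, STAT5B and STAT5A had 6 reads in PC-3 against 14739 in LNCaP. DHX58 is an RNA sensor of the RIG-I family and KAT2A a histone acetyltransferase. The next gene, STAT3, had a mean of 0.37 CPM in PC-3 and 151 CPM in LNCaP, so it was nearly silent too. On the other side C17orf113 had 1.1 CPM in PC-3 and 2.82 CPM in LNCaP.

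A run on chromosome 15 (72241181 to 72376420) held PARP6, CELF6, ENSG00000260729 and HEXA, with 3 reads in PC-3 against 5888 in LNCaP, while the neighbour PKM had 1215, 1165 and 1184 CPM in PC-3, against 451, 489 and 424 CPM in LNCaP. On chromosome 4, UGT2B17, UGT2B15, UGT2B10 and UGT2B11 had 10 reads in PC-3 against 10676 in LNCaP. IRX3, IRX5 and IRX6, homeobox genes of chromosome 16, had 0 reads in PC-3 against 605 in LNCaP. In LNCaP a run on chromosome 2 (150468195 to 151380046) held RND3, a small GTPase, RBM43, NMI and TNFAIP6, with 21 reads against 17446 in PC-3. RND3 had 644, 496 and 323 CPM in PC-3, against 0.15, 0 and 0.0559 CPM in LNCaP. On chromosome 12, KRT7, KRT86 and KRT81 had 4 reads in LNCaP against 49394 in PC-3. On chromosome 5, SH3TC2, ABLIM3 and AFAP1L1 had 21 reads in LNCaP against 6961 in PC-3. Whether such runs are lost from the genome or not transcribed was not tested.

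**Figure D4:**
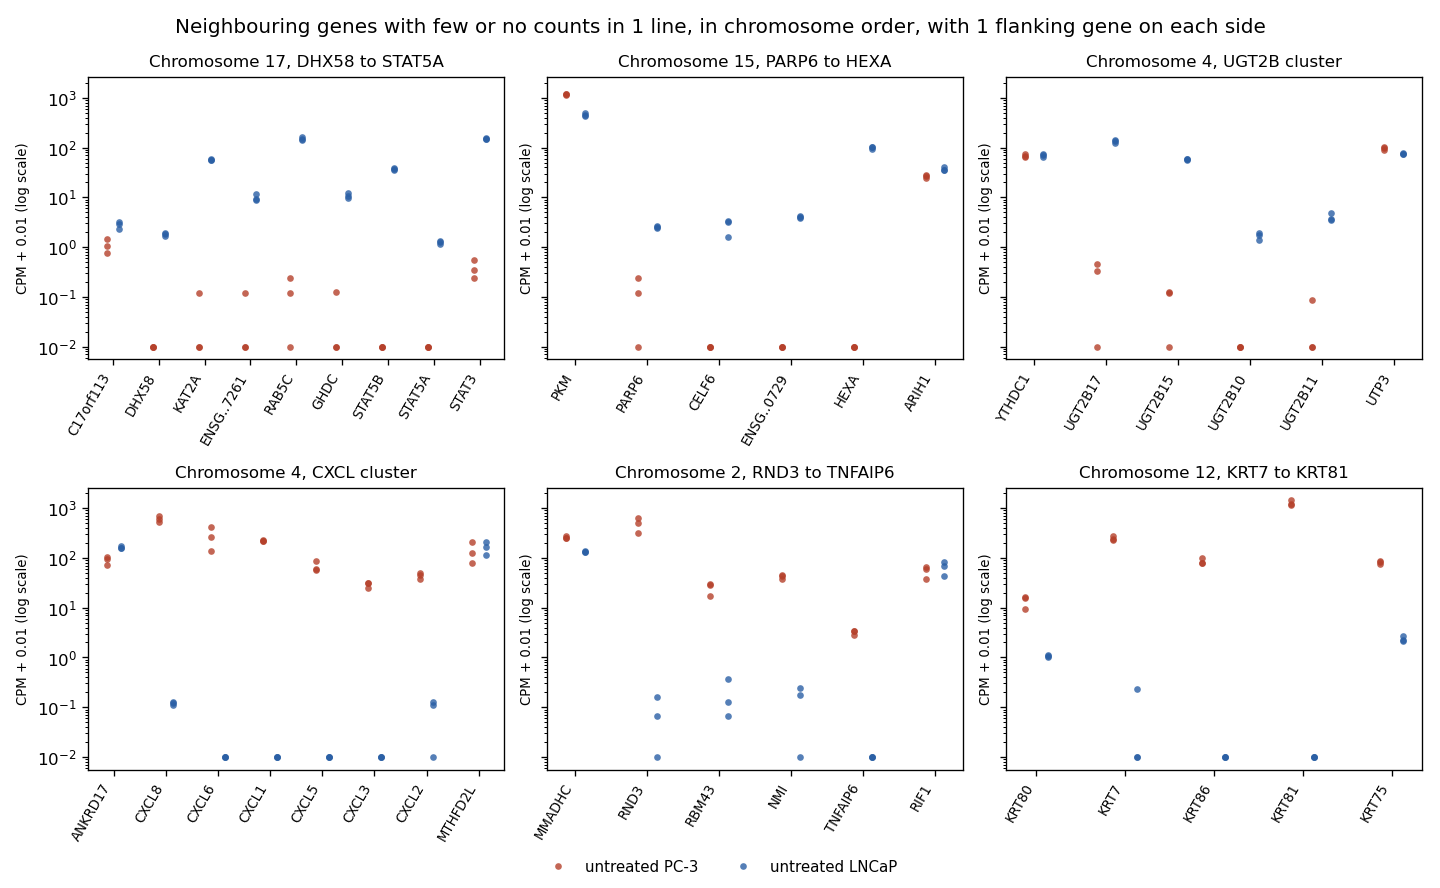
Each panel gives CPM plus 0.01 (log scale) of every library, PC-3 in red at the left and LNCaP in blue at the right, for tested genes in chromosome order with 1 flanking gene on each side of the run (RASSF6 was not tested and is left out). The top panels are runs with few reads in PC-3 and the bottom panels runs with few reads in LNCaP, and STAT3, which flanks the first run, had a mean of 0.37 CPM in PC-3 and 151 CPM in LNCaP.

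By chromosome, the median log2 fold change of tested protein-coding genes ran between -0.56 on chromosome 9 and 0.73 on chromosome 21. Over all tested protein-coding genes the median was 0.08, with 40.1% higher and 34.8% lower. On chromosome 21, 57.4% of 136 genes were higher and 24.3% lower. On chromosome 20, 52% of 356 genes were higher and 20.8% lower (median 0.51), and chromosomes 8 and 2 had medians of 0.51 and 0.46. On chromosome 9, 24.8% of 541 genes were higher and 51.9% lower. Chromosomes 13 and 16 had medians of -0.40 and -0.34. Both lines are known to have abnormal chromosome numbers, and copy number was not measured here.

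**Figure D5:**
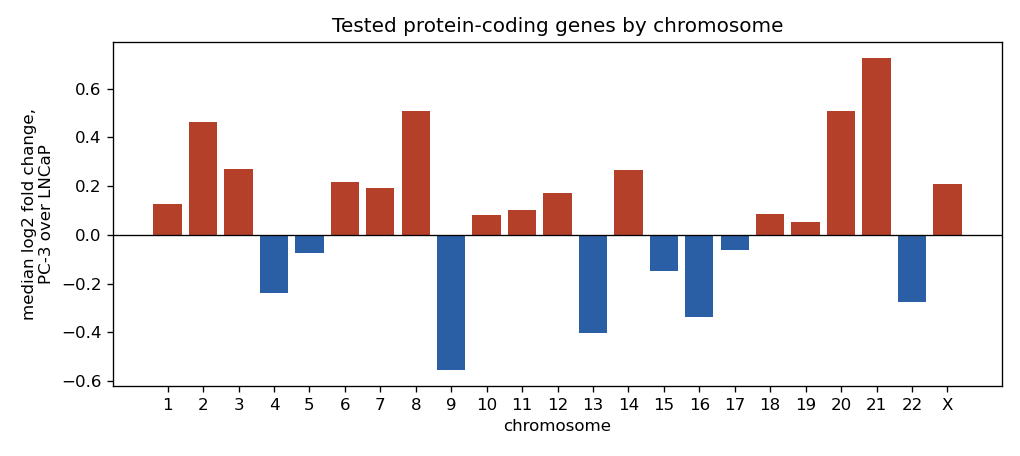
Bars give the median log2 fold change, PC-3 over LNCaP, of tested protein-coding genes on each autosome and X. Red bars mark chromosomes with a median above 0 and blue bars those with a median below 0. The range is -0.56 (chromosome 9) to 0.73 (chromosome 21), against 0.08 over all tested protein-coding genes.

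The LNCaP libraries that received a drug widen the range of that line. Of the 2603 genes called and over 4-fold higher in PC-3, 2449 (94.1%) had all 3 PC-3 libraries above all 15 LNCaP libraries, and of 2690 lower outside chromosome Y and XIST, 2252 (83.7%) had them below all 15. KLK3 had 1.28 to 2.37 CPM in PC-3 and 127 to 1628 CPM over the 15 LNCaP libraries, in a scaling of all 18 libraries. The drug groups are described here only as a range.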

How the data were processed

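The deposited table gives read counts per gene for 18 libraries, 6 of which are used here. The tools named per the submitters' processing notes are STAR 2.7.6a, featureCounts 1.6.4, DESeq2 1.20.0 and fastp, with GRCh38 as the build, and per the labels' protocols poly(A) RNA was made into libraries with a kit that does not mark strand. The annotation release, strand setting and handling of multi-mapped reads are not given in the sources used here, so overlapping genes and close copies are uncertain. Of the 63241 gene identifiers, 58228 matched GENCODE 29. The 18 FPKM columns of the table were not used.

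Counts were filtered with filterByExpr, scaled by TMM and fitted with the robust quasi-likelihood F test of edgeR 4.0.16 (limma 3.58.1, R 4.3.3) on the 3 untreated PC-3 and 3 untreated LNCaP libraries. Genes were called at a Benjamini-Hochberg adjusted p under 0.05 over all 17259 genes tested, with 4 residual degrees of freedom and a biological coefficient of variation of 0.208. Standard errors are the size of the log2 fold change without the prior count of the fit, divided by the square root of F. With few reads in a line, that fold change can differ from the printed one. TMM factors were 0.88 to 0.92 in PC-3 and 1.08 to 1.12 in LNCaP. Libraries of a line differed by more than sampling noise (chi-square per degree of freedom 17.0 to 35.5) and were counted separately. The script was tested on simulated counts, with 50 genes changed at each of log2 fold changes -2, -1, 1 and 2. It recovered 98%, 40%, 42% and 100% of them in that order, with 12 false calls. A gene that was not called may thus still differ by 2-fold.

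Genes named are 25 that define the lines, the 12 largest fitted log2 fold changes in each direction, up to 5 called members of each list with the largest fold change at a mean of 5 CPM or more in the higher line, and silent genes with their runs. Some of these are not reported here. Other members named in the text were chosen after their values were seen. The members and lists were chosen with earlier results of these data known. Alternatives were DESeq2 1.42.0, other size factors and filters, a replicate block, a fit of all 18 libraries, a fit without mitochondrially encoded genes, glmTreat against a 2-fold change and leaving out each library. Promoters are from RefSeq on GRCh38.p14.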

Additional observations from a re-analysis of the deposited data

How the results depend on the processing

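No gene followed one by one changed direction under any alternative run. The number of genes called was 12900 with RLE size factors, 14492 with DESeq2 over 33686 genes, 14950 with no filter over 33708 genes, 12252 with a stricter filter, 13266 with all 18 libraries fitted and 12913 without mitochondrially encoded genes. Tested against a 2-fold change with glmTreat, 7528 genes were called, 3735 higher and 3793 lower, by construction of that test. Leaving out a library gave 12455 to 13147 genes called, 6172 to 6485 higher and 6267 to 6662 lower, and 5599 to 5758 called and over 4-fold apart. Calls over 4-fold apart numbered 3469 higher and 4382 lower with no filter and 3287 higher and 3807 lower with DESeq2, against 2603 and 2715, so the directions were less evenly split. Calls lost among the named genes besides B2M were KRT18 with no filter (adjusted p = 0.0628) and against a 2-fold change, MLH3, a mismatch repair gene, in 5 alternatives (adjusted p between 0.0674 and 0.355) and ZNF208, a zinc finger gene, in 2. HOXB13, EGFR, JUND, MTF1, MT-ND3, MT-ATP8, MT-ND4 and COL1A1 lost their call only against a 2-fold change. KRT8 was called without PC-3 replicate 1 (adjusted p = 0.0221). The cause was not tested for these. Of 82 counts of list members called in 1 direction, 26 moved by over 1.5 times against a 2-fold change, and 0 to 5 did under each other alternative. HOX genes called higher numbered 9 with the stricter filter, against 14, and mitochondrially encoded mRNAs called lower numbered 2 without PC-3 replicate 1 or without LNCaP replicate 3, against 4.

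Replicate numbers did not pair the libraries: deviations of same-numbered libraries correlated by 0.25, -0.02 and 0.08. With the number as a replicate block 12849 genes were called, 6362 higher, 6487 lower and 5320 over 4-fold apart. The block ended the call of B2M (adjusted p = 0.0582) and made that of KRT8 (adjusted p = 0.0280).

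At these depths a count of 0 allows up to 0.096 CPM in PC-3 and 0.055 CPM in LNCaP, so folds of silent genes are bounds. Each line is 1 cell line with 3 libraries, and differences between PC-3 and LNCaP hold for these lines, not for androgen-independent cancer in general.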

Other observations

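Some genes were carried by a single library. Among genes with 10 CPM or more in the highest library of a line, a library was counted as apart when it lay over 4-fold from the mean of the other 2 on the log scale while those lay within 1.5-fold of each other, a description chosen after the values were seen. This held for 70 of 10654 genes in PC-3 (0.657%) and for 73 of 10396 genes in LNCaP (0.702%). In PC-3 these include CLDN4, B2M and IFITM1, each low in replicate 2, and in LNCaP they include JUN, low in replicate 2. ITGAV, an integrin chain, had 181, 23.7 and 72 CPM in PC-3, against 275, 199.96 and 46.3 CPM in LNCaP. HERC3, a ubiquitin ligase gene, had 2.83, 10.5 and 11.9 CPM in PC-3, against 391, 279.9 and 61.6 CPM in LNCaP, and ZBTB10, a zinc finger gene, had 107, 95.4 and 51 CPM in PC-3, against 61.1, 55 and 237 CPM in LNCaP. LNCaP replicate 3 stood apart for these 3 genes.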
